A study of Mus musculus with 17 samples.

Results

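The genes described here encode the ionotropic and metabotropic glutamate receptors of the brain, the transmembrane AMPA receptor regulatory proteins (TARPs) and the scaffold proteins that hold receptors at the postsynaptic density. They were chosen by gene symbol from a fixed set of names and not by a cut on their measured values. Earlier results of these data were known when the set was chosen. Of the 49 listed genes, 44 had at least 1 probe set that carries their symbol alone. Those 44 genes are 44 of 18193 genes on the array and hold 90 of its 45037 mouse probe sets. They comprise 4 AMPA receptor subunits, 7 TARPs, 6 NMDA receptor subunits, 5 kainate receptor subunits, 1 delta receptor, 6 metabotropic receptors and 15 scaffolds. The 7 are Cacng2 to Cacng8, grouped as TARPs by symbol, although Cacng6 is a calcium channel gamma subunit and not a TARP. The other listed genes were not analysed here. Each gene was read by its brightest probe set, the one with the highest mean signal over the 15 unmarked arrays.

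The study hybridised RNA of mouse brain from knockout (KO) animals, in which floxed Foxo1, Foxo3 and Foxo4 had been deleted by hGFAP-cre, and from wild-type (WT) animals to Affymetrix mouse expression arrays. The labels call the genotypes FOXO 1/3/4 KO and WT and name only brain as the tissue, and laser capture of dentate gyrus neurons is taken from the methods of the paper. In this line the Cre is active in progenitors common to neurons and glia, so both lack the factors in KO, and the mice were on a mixed FVB and B6 background. The sources used here give neither the age nor the sex of these samples, nor which Cre and floxed alleles the WT animals carried, and no sample is labelled as treated. There were 8 KO and 7 WT samples, plus a KO and a WT sample marked CA13, of the marks 433 and 437, a mark that the sources do not explain. The 15 unmarked samples each have a number or code of their own, read here as an animal, and the CA13-marked samples share theirs with the unmarked samples 433 and 437. The sources do not say outright that these are animals, so p-values measure the spread between these samples, which may be technical.

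Glutamate carries most fast excitatory transmission in the hippocampus. AMPA and kainate receptors open rapidly to glutamate, NMDA receptors admit calcium when the membrane is also depolarized, and metabotropic receptors act through G proteins on either side of the synapse. TARPs accompany AMPA receptors to the surface and slow their closing, and scaffolds of the Dlg, Dlgap, Shank and Homer families link receptors to each other, to signalling enzymes and to the actin cytoskeleton. Granule cells of the dentate gyrus send mossy fibre axons to the pyramidal neurons of field CA3, and pyramidal neurons of the CA fields differ from granule cells in many receptor subunits.

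Values were compared as levels, log2(signal + 32) after quantile normalization over the 17 arrays, and signals are given on the linear scale of the deposited table. The median signal per array was 88.1 to 123. A score of 9 measured granule neuron markers minus 13 CA pyramidal neuron markers lay between -0.36 and 0.49 in 15 arrays and at -5.63 and -5.60 in the other two, the library labelled 433, a KO, and the CA13-marked WT sample of 437. These 2 are called CA-profile arrays and the other 15 granule-profile arrays, so the unmarked library of mark 433 had a CA profile and its CA13-marked partner a granule profile. Whether the labels of this pair were exchanged was not tested, and neither sample entered the test between genotypes. With the CA13-marked sample of 433 added to KO in that test, 0 members passed at an adjusted p under 0.05 (limma), as without it. Foxo1, the check of the genotype, had a signal of 4970 to 19074 in WT and 121 to 658 in the 7 granule-profile KO arrays (log2 fold change -5.14, standard error 0.31, adjusted p = 4.81e-07 from limma), 335 in the library labelled 433, 293 in the CA13-marked sample of 433 and 833 in that of 437. Interneuron markers had a mean level of 9.15 to 9.92 in granule-profile arrays and 9.95 and 9.97 in the CA-profile arrays, where 3 of the 8 markers lay above every granule-profile array, and 0 of 7 astrocyte and 0 of 6 oligodendrocyte markers did. The mean of the oligodendrocyte markers was 9.37 to 10.57 in WT and 10.06 to 11.08 in KO, with the Gapdh 3' to 5' log2 ratio, a score of RNA quality, at 5.11 to 6.23 and 5.04 to 6.41. A ratio above 0 means more signal at the 3' end, and it was 5.92 and 5.85 in the CA-profile arrays. Whether probe sets called dim below reflect low expression or this 3' bias was not tested. The part of these cell types and of RNA quality in the results below was not tested.

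Most members had similar levels in both kinds of array, and few differed by at least 2-fold in both marks. Grm2 and Grik3, which encode a presynaptic metabotropic receptor and a kainate receptor subunit, were lower in the CA-profile arrays, and Homer2, a scaffold that binds group I metabotropic receptors, was higher. For each mark the CA-profile array was set against the granule-profile array of the same mark, and a member was counted where both differences had the same sign, were at least 2-fold and left both CA-profile arrays outside the range of all 15 granule-profile arrays. By this count 1 member was higher and 2 were lower, beside 2.01% of all genes higher and 1.7% lower. Since the arrays were told apart by markers read from the same arrays, and each kind of difference rests on 2 arrays, no test was made. In such bulk samples, fewer cells of a type and less RNA per cell cannot be told apart.

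Grm2 (chromosome 9, 106644534 to 106656109 of GRCm38.p6) had a signal of 10.8 in the library labelled 433 against 169 in the CA13-marked sample of 433, and of 14 in the CA13-marked sample of 437 against 145 in the unmarked one. Over WT granule-profile arrays its signal was 41.8 at the lowest, 52.5 at the median and 171 at the highest, and over KO 27.8, 251 and 346. Both CA-profile arrays lay below every granule-profile array, with differences of -2.08 and -1.97 on the log2 scale. The receptor is coupled to inhibitory G proteins and lowers glutamate release from mossy fibre terminals. Because 32 is added to each signal, the size of this difference is understated, and it depends on the constant.

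Grik3 (chromosome 4, 125490259 to 125714173) had a signal of 226 against 966 in the 2 libraries of mark 433 and of 279 against 1013 in those of mark 437. The granule-profile signals were 620, 1013 and 1607 in WT (lowest, median and highest) and 688, 999 and 1391 in KO, so the CA-profile arrays lay well below both groups. The differences were -2.01 and -1.73 on the log2 scale. Grik3 encodes a low-affinity kainate receptor subunit that is found at mossy fibre synapses. Its second probe set, with a mean signal of only 27.1, had a mean difference of 0.81, so the probe sets of this gene disagree in sign.

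Homer2 (chromosome 7, 81600481 to 81706925) had a signal of 7328 against 3266 within mark 433 and of 7923 against 3653 within mark 437. In granule-profile arrays it was 1425, 3038 and 3653 in WT and 1847, 3117 and 4885 in KO, and again there was no overlap with the CA-profile arrays. The differences were 1.04 and 1.06 on the log2 scale. A dimmer Homer2 probe set was higher by 0.79 and 0.37 but stayed within the granule-profile range.

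Among the members outside the granule-profile range, those nearest to the 2-fold limit on its other side were Homer1 (chromosome 13, 93303757 to 93405129) at 0.98 and 1.01, and Grik1 at 1.04 and 0.83. Homer1 is the most studied Homer scaffold, whose long forms link metabotropic receptors to Shank and whose short form is induced by activity. Its signal was 6738 against 3157 within mark 433 and 8817 against 4178 within mark 437, and 1652 to 4991 over all granule-profile arrays. The next 2 Homer1 probe sets in brightness differed by 1.26 and 1.45 on average and were outside the range, while the 3 dimmest, with mean signals of 11.7 to 43.1, ranged from -0.57 to 0.35. Grik1, which encodes a kainate receptor subunit of interneurons and principal cells, was dim in every array, with a signal of 181 and 186 in the CA-profile arrays and 79.3 to 144 in the granule-profile arrays. At a limit of 1.5-fold, 5 members were higher and 3 lower, beside 3.88% and 2.99% of all genes.

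**Figure D1:**
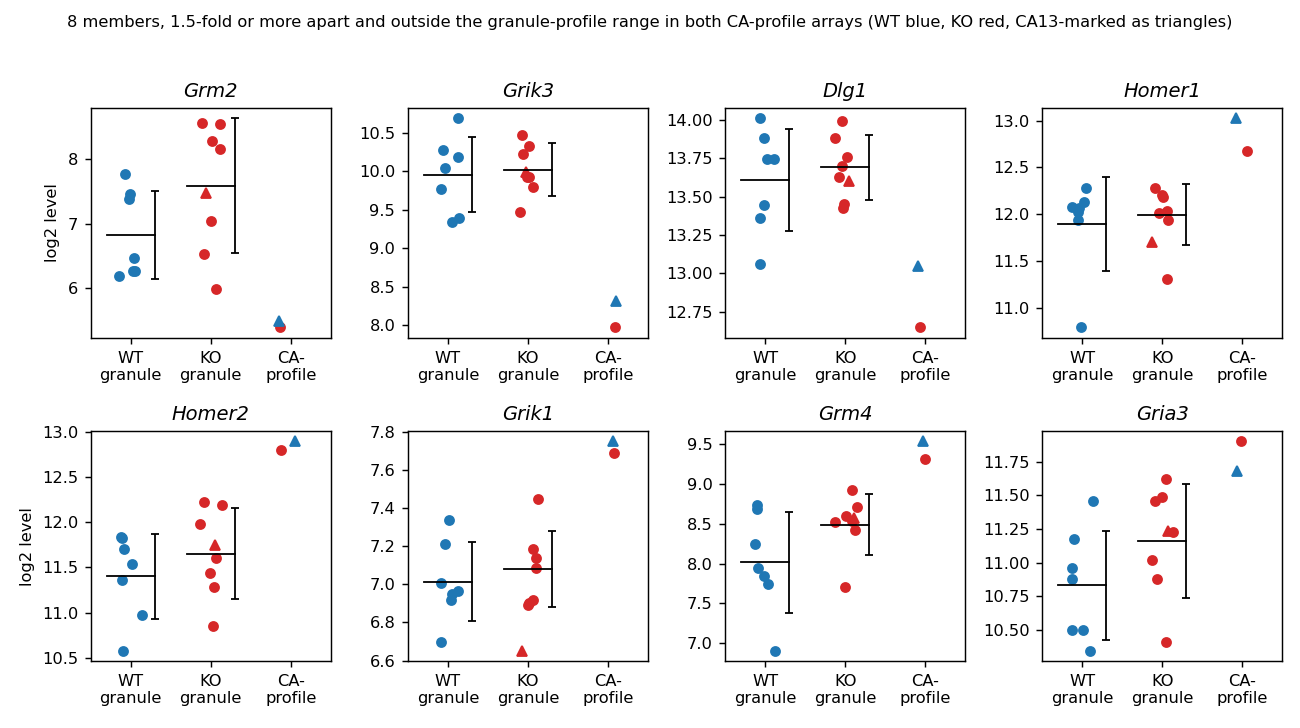
Level on the log2 scale (y axis, quantile normalized log2(signal + 32)) of 8 members in 17 arrays, grouped as WT granule-profile, KO granule-profile and CA-profile, with each point an array, WT in blue, KO in red and CA13-marked samples as triangles. Lines and bars give the mean and SD of 7 unmarked arrays per group; the CA-profile arrays lie outside the granule-profile range in each panel, by least in Dlg1, where they reach 13.05 and the lowest granule-profile array 13.06.

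The windows of 250 bases before to 50 after the start of the genes are shown for these 4 members, which stood farthest apart between the array profiles in either direction, to set those lower in the CA-profile arrays beside those higher. They are from RefSeq on GRCm38.p6, which gave such a window for 32 of the 44 members, and for Homer1 and Homer2 the first of 2 listed starts was taken. Capitals mark TGACGT, the core of the cyclic AMP response element. The windows are Grm2 at chr9:106656060-106656359 on the minus strand, Grik3 at chr4:125490446-125490745 on the plus strand, Homer1 at chr13:93303507-93303806 on the plus strand and Homer2 at chr7:81706876-81707175 on the minus strand. The Grik3 window lies wholly inside the gene interval given above, which begins at 125490259. The start it was set on is therefore not the start of that interval.
Grm2: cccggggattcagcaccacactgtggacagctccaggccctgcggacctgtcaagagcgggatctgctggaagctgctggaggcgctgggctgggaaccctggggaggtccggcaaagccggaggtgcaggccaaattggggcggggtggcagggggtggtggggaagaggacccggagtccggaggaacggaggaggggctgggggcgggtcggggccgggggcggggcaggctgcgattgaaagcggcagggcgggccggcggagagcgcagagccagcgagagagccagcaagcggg
Grik3: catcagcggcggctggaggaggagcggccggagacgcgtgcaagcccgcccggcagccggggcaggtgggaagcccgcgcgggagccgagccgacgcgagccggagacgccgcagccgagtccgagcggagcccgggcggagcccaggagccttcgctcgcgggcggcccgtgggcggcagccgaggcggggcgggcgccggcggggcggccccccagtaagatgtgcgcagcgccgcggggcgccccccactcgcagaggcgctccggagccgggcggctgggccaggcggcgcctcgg
Homer1: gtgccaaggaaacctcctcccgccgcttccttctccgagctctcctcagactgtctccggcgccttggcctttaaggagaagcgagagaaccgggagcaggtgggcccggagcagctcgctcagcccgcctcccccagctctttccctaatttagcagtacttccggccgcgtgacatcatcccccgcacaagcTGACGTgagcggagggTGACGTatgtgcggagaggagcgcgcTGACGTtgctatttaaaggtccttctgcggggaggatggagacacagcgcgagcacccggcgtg
Homer2: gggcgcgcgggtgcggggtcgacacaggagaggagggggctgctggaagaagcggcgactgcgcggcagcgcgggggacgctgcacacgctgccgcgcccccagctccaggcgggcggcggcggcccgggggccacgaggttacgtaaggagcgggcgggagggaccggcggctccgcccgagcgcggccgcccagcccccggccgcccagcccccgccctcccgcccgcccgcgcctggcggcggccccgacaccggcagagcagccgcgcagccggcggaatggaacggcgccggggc
All 4 are rich in G and C, at 72.0%, 82.0%, 63.0% and 82.3% of bases in the order shown. TGACGT, searched on both strands, occurred in 1 of the 32 member windows and in 7.64% of 27025 windows of all genes. The 1 was Homer1, which holds it at 3 places, beginning 56, 40 and 14 bases before the start of the gene. The full palindrome TGACGTCA, which contains TGACGT, was in 0 of the 32 windows and in 1.88% of all. GTAAACA, the core bound by FOXO factors, was in 0 of the 32 and in 3.55% of all, and CAGATG, an E-box of the kind bound by NEUROD factors, in 3 of the 32 (9.38%) and in 17.2% of all. A match describes these letters only.

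By class, the 4 AMPA receptor subunits kept within 0.78 of their partners. Gria2, the subunit that makes the channel nearly impermeable to calcium, differed by 0.03 and 0.08, and Gria1, whose delivery to synapses accompanies potentiation, by -0.32 and -0.17. Gria3 was the subunit outside the range, with a signal of 3713 and 3249 in the CA-profile arrays against 1226 to 3105 in the granule-profile arrays and differences of 0.66 and 0.72. Its second probe set, with a mean signal of 1738, had -0.41 and 0.09. Gria4 differed by 0.23 and 0.78 and was within the range.
Of the 7 genes grouped as TARPs, 0 lay outside the granule-profile range in both CA-profile arrays. Cacng8, the TARP most abundant in hippocampal pyramidal and granule cells, differed by 0.60 within mark 433 and -0.27 within mark 437, and Cacng2, the founding TARP known as stargazin, by 0.19 and 0.47. Cacng7 was at -1.71 and 0.48, the farthest apart of all members between the marks, and it was dim throughout, with signals of 13.5 to 190 over the granule-profile arrays.
Of the 6 NMDA receptor subunits, 4 had opposite signs in the 2 marks, beside 6550 of all 18193 genes. Grin3b, a subunit of glycine-sensitive receptors, was among them with 0.28 and -0.85, at signals of 141 and 62.5 in the CA-profile arrays and 57.7 to 227 in the granule-profile arrays. Grin2b, a regulatory subunit of slow channel closing, differed by 0.17 and 0.32, and Grin2a by 0.24 and -0.17 at signals under 100 in both CA-profile arrays. Grin2d, a subunit found mainly in interneurons in the adult hippocampus, was the member of this class outside the range, with a signal of 357 and 330 against 159 to 304 and differences of 0.33 and 0.49. By their brightest probe sets, all 5 kainate receptor subunits had the same sign in both marks, beside 11643 of all 18193 genes. Dimmer probe sets of Grik1 (1.32 and -0.24) and Grik3 (1.66 and -0.03) had opposite signs, at mean signals of 25.8 and 27.1. Grik4, a high-affinity subunit known from CA3 pyramidal cells, differed by 0.61 and 0.58. The library labelled 433, at 8.04, lay just above the granule-profile maximum of 7.99 for Grik4, and the CA13-marked sample of 437, at 7.91, inside it. Grik2, a principal subunit of hippocampal kainate receptors, differed by -0.60 and -0.47. Its dimmer probe set, with a mean signal of 38.0, had 0.65 and 0.07. Grik5 differed by -0.95 and -1.02, with signals of 49.8 and 50.4 in the granule-profile and 5.12 and 9.22 in the CA-profile array of the marks, and other granule-profile arrays reached down to 5.89.

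Among metabotropic receptors, Grm4, a presynaptic receptor coupled to inhibitory G proteins, had a signal of 583 and 675 in the CA-profile arrays against 74.7 to 461 in the granule-profile arrays. Both lay above the range, with differences of 0.74 and 0.85. Grm5, the postsynaptic receptor that Homer proteins bind, differed by -0.29 and 0.34, Grm7, a presynaptic receptor of low affinity, by -0.29 and 0.06, and Grm3 by -0.14 and -0.04. Grm8 had signals of at most 35.7 in granule-profile arrays, and a level this near the floor has little order.
Of the 15 scaffolds, 9 were higher and 4 lower in both marks, with opposite signs in the other two. Dlg1, a membrane-associated guanylate kinase that binds AMPA receptor tails, was lower, with signals of 6565 and 8952 against 8962 to 16668 and differences of -0.95 and -0.69. This rests on its brightest probe set. The dimmer Dlg1 probe sets, with mean signals of 333 and 25.4, had mean differences of 0.03 and 0.22. Dlg3, a related protein that binds NMDA receptors, had signals of 1511 and 1611 against 1764 to 2840 and differences of -0.35 and -0.25. Dlg4, which encodes the best known scaffold of the postsynaptic density, differed by -0.35 and -0.08, and Shank3, which sits in the layer below it, by 0.21 and 0.34. Homer3 was higher by 0.95 and 0.66, and the CA13-marked sample of 437, at 8.98, fell just inside the granule-profile maximum of 9.01.
Over all 44 members, 6 lay above the granule-profile range in both CA-profile arrays and 4 below it, beside 6.88% and 5.25% of all genes, and the other 34 were within it on at least 1 array. The median difference was 0.10, against 0.02 over all genes. In 30 members both marks gave the same sign and in 14 they did not. Of all 18193 genes, 11643 had the same sign, 6135 higher and 5508 lower in both marks, and 6550 did not. Of the 27 members with more than 1 probe set, 15 had the same sign of the mean difference in all of them.

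**Figure D2:**
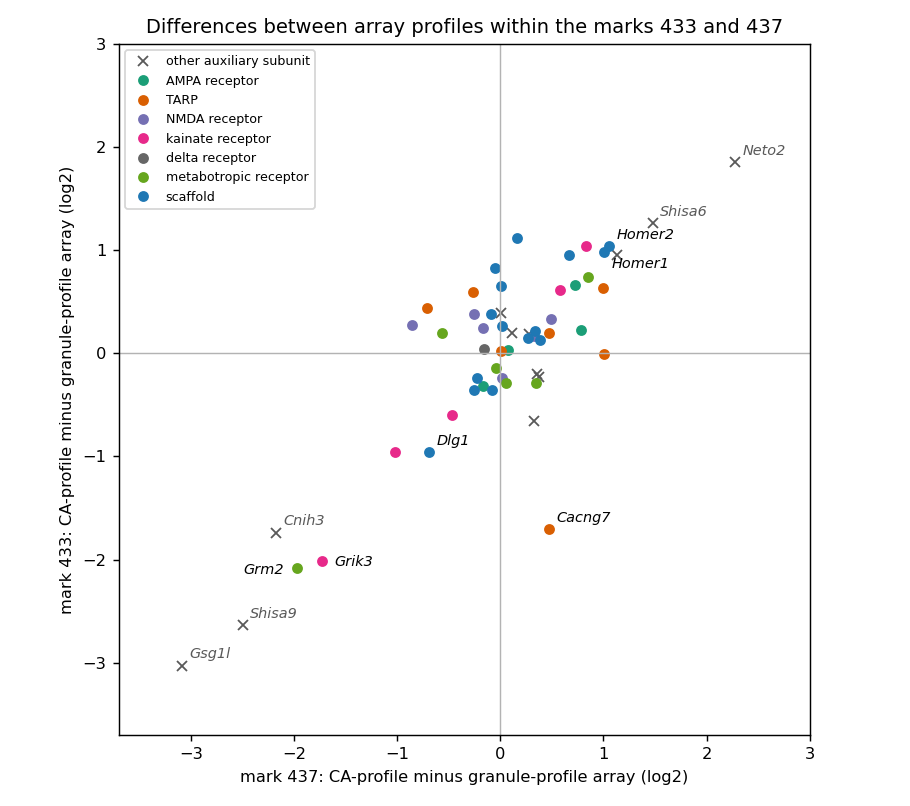
Difference between the CA-profile and the granule-profile array of mark 433 (y axis, log2) against that of mark 437 (x axis, log2), with 1 point for each of the 44 members, coloured by class, and a cross for each of 12 further auxiliary subunits. Grm2 and Grik3 lie apart at the lower left and the Homer genes near 1 on both axes, while the crosses reach from -3.03 and -3.08 for Gsg1l to 1.85 and 2.28 for Neto2.

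The auxiliary subunits of AMPA and kainate receptors outside the TARP family bind the same channels and set their gating and trafficking. Of 12 such genes, all measured, 2 were higher and 3 lower by the same 2-fold count, beside 2.01% and 1.7% of all genes, 5 were within the granule-profile range, and the median difference was 0.12. Gsg1l, a claudin-like protein that slows the recovery of AMPA receptors from desensitization, was at 5.91 and 5.55 against 8.63 to 9.67 in granule-profile arrays, with differences of -3.03 and -3.08. Shisa9, a related regulator first known from the dentate gyrus, was at 9.69 and 10.31 against 11.90 to 13.22, with a mean difference of -2.57. Cnih3, a cornichon that promotes surface delivery, differed by -1.74 and -2.17. Neto2, a partner of kainate receptors, was at 9.86 and 10.66 against 7.26 to 8.55, with 1.85 and 2.28. The fifth, Shisa6, named here because of its value, was higher by 1.26 and 1.48.
Of 28 postsynaptic signalling enzymes and regulators, 24 were measured, 1 was higher and 3 were lower, beside the same 2.01% and 1.7%. Arc, an immediate early gene whose protein drives removal of AMPA receptors, was higher by 2.74 and 2.77. Sipa1l2 and Rasgrf2, regulators of small GTPases at spines, had mean differences of -2.87 and -2.61, and Camk2g, a subunit of the calcium and calmodulin dependent kinase, of -1.37.
Of 38 adhesion molecules of excitatory synapses, 37 were measured, 2 were higher and 4 lower, again beside 2.01% and 1.7%. C1ql3, a secreted synaptic organizer, was at 10.46 and 10.54 against 12.69 to 13.90, with a mean difference of -3.18. Il1rap, a partner of presynaptic receptor phosphatases, had a mean of -2.25 and Lrrtm4, a heparan sulphate binding organizer of granule cell synapses, -2.07. Adgrl2, a latrophilin, had 2.34. The lists were chosen with earlier results known, so these counts describe the arrays and single out no list.

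Between KO and WT, in granule-profile arrays, the members differed little. Of the 44, 0 passed the test at an adjusted p under 0.05 (limma, adjusted p = 1.00 for each), beside 0.0165% of all genes, which is 3 of 18193. At an unadjusted p under 0.05, 1 member, Dlg3, was higher in KO and 1, Cacng3, was lower, beside 1.8% and 1.78% of all genes. The test set 7 KO against 7 WT arrays, without the library labelled 433. The log2 fold changes of 41 members were smaller than 0.50 in size, 24 were positive and 20 negative, and their median was 0.01, the same as over all genes. Of all 18193 genes, 17711 were smaller than 0.50 in size, with 9434 positive and 8759 negative. In none of the members did the KO and WT arrays fail to overlap, a pattern that 0.044% of all genes showed in the higher and 0.0275% in the lower direction. The median standard error of a member was 0.20, a precision that depends on the spread between arrays as well as on their number. Changes in a single member below the reach of such errors were not detectable here.

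**Figure D3:**
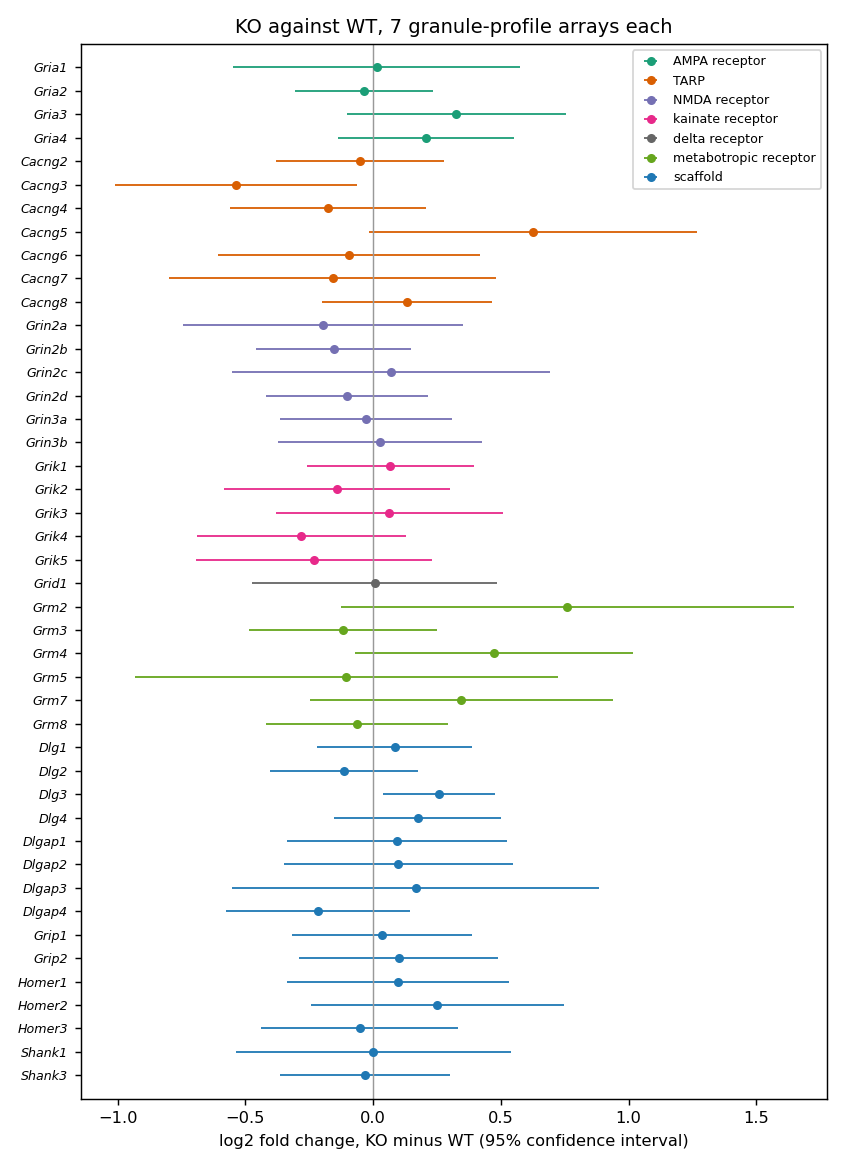
Log2 fold change of KO against WT (x axis) for each of the 44 members (y axis), coloured by class, from limma on 7 granule-profile arrays per genotype, with bars for the 95% confidence interval. The interval leaves out 0 for Dlg3 (0.04 to 0.48) and Cacng3 (-1.01 to -0.06), neither of which passed the adjusted test.

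Dlg3 (chromosome X, 100767411 to 100818410) had a signal of 1764, 1978 and 2196 in WT (lowest, median and highest) and of 2045, 2424 and 2840 in KO. All 7 KO arrays were above the WT median, and the groups overlapped at their edges. The log2 fold change was 0.26 (standard error 0.10, unadjusted p = 0.0234 from limma, two-sided exact permutation p = 0.0099 over 3432 splits). The sample titles carry 1 of 2 further numbers, which the sources do not explain, and the arrays that share such a number are called a larger and a smaller array series here, the smaller with 2 KO and 2 WT arrays. The fold change of Dlg3 was 0.27 in the larger and 0.24 in the smaller series, and no other probe set reads the gene. Dlg3 also had the smallest spread of the 44 members over granule-profile arrays, with an SD of 0.19.
Cacng3 (chromosome 7, 122671744 to 122769393), a TARP of cortical and hippocampal neurons, was dim, with signals of 82.5, 107 and 191 in WT and 28.2, 71.6 and 126 in KO. Only 1 KO array was above the WT median, and the groups overlapped. The log2 fold change was -0.54 (standard error 0.22, unadjusted p = 0.0287 from limma, two-sided exact permutation p = 0.0309), with -0.39 in the larger array series and -0.89 in the smaller. Without the KO sample 903 or 391, or the WT sample 437 or 392, its unadjusted p was above 0.05 (fold changes of -0.43, -0.42, -0.51 and -0.45).

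Cacng5 (chromosome 11, 107874604 to 107915055), an atypical TARP, differed between the array series within each genotype. Its signal was 705, 867 and 2157 in WT and 775, 1800 and 2841 in KO, and in each genotype both arrays of the smaller series were the highest. In the larger series alone, the 5 WT arrays lay at 9.54 to 9.89 and the 5 KO arrays at 9.67, 10.36, 10.39, 10.81 and 11.01, so that 4 of the 5 KO arrays were above every WT array of that series. The log2 fold change was 0.63 (standard error 0.30, adjusted p = 1.00 from limma, two-sided exact permutation p = 0.0956), and with the array series as a block the same value had a standard error of 0.17 and an adjusted p of 0.738. Within the larger series it was 0.73 and within the smaller 0.36.
Grm2, low in the CA-profile arrays, varied as widely within genotypes as between them. KO signals ran from 27.8 to 346 with a median of 251, WT signals from 41.8 to 171 with a median of 52.5, and 6 of 7 KO arrays were above the WT median. The log2 fold change was 0.76 (standard error 0.42, two-sided exact permutation p = 0.132), with 0.45 in the larger and 1.53 in the smaller array series, and the 95% confidence interval of -0.13 to 1.65 holds both 0 and differences above 2-fold.

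**Figure D4:**
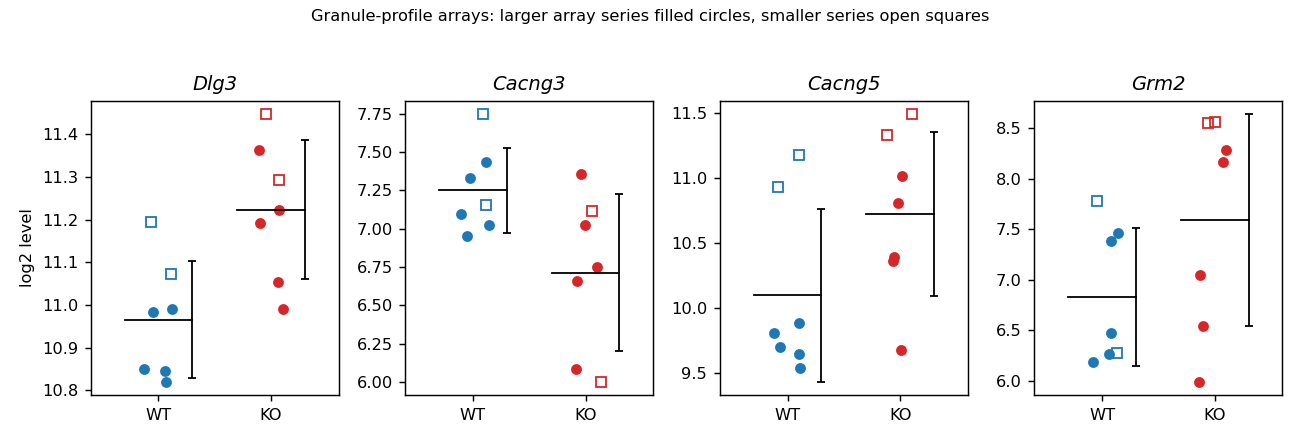
Level on the log2 scale (y axis) of Dlg3, Cacng3, Cacng5 and Grm2 in 7 WT (blue) and 7 KO (red) granule-profile arrays, with filled circles for the larger and open squares for the smaller array series and lines and bars for the mean and SD. The groups overlap in each panel, and in Cacng5 the open squares lie above the filled circles of the same genotype, with WT means of 10.10 and KO means of 10.72 over both series.

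The next 6 members by p were spread over the classes. Grm4 had signals of 74.7, 210 and 411 in WT and 167, 337 and 461 in KO (log2 fold change 0.47, standard error 0.26). Gria3 had 1226, 1857 and 2859 in WT and 1358, 2285 and 3105 in KO (log2 fold change 0.33, standard error 0.20). The groups overlapped over most of their range in both.
Grik4 had signals of 86.5, 130 and 228 in WT and 58.3, 108.2 and 122.8 in KO (log2 fold change -0.28, standard error 0.19). Gria4, a subunit that opens and closes fast, had 417, 587 and 976 in WT and 583, 739 and 872 in KO (log2 fold change 0.21, standard error 0.16). The KO arrays of Gria4 thus lay inside the range of the WT arrays.
Dlgap4, a linker between the Dlg and Shank layers, had signals of 375, 513 and 781 in WT and 366, 443 and 668 in KO (log2 fold change -0.22, standard error 0.17). Grm7 had 3308, 8749 and 10778 in WT and 3978, 9871 and 13507 in KO (log2 fold change 0.35, standard error 0.28). Exact permutation p-values of these 6 were 0.114 to 0.304, before any adjustment.

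The 4 AMPA receptor subunits had fold changes between -0.04 and 0.33 and the 6 NMDA receptor subunits measured between -0.20 and 0.07. Grin1 had no probe set that carries its symbol alone, and Grin2a was dim, with a mean signal of 43.5. Gria1 had a log2 fold change of 0.01 (95% confidence interval -0.55 to 0.58), Gria2 -0.04 (-0.31 to 0.23), Grin2b -0.15 (-0.46 to 0.15) and Grin2a -0.20 (-0.74 to 0.35). Grik3 and Homer1, set apart by array profile, had 0.06 (-0.38 to 0.51) and 0.10 (-0.34 to 0.53), and Homer2 had 0.25 (-0.24 to 0.75). The second Homer2 probe set was at 0.46 with an unadjusted p of 0.0234 (limma, adjusted p = 1.00). Dimmer probe sets of Grin3a and Grip1 had 0.54 and 0.38 (unadjusted p = 0.0326 and 0.0382 from limma). The brightest probe sets of these genes had -0.03 and 0.03. Of the 27 members with more than 1 probe set, 13 had the same sign of fold change in all of them and 14 did not. Of the 15 scaffolds, 11 had a positive and 4 a negative fold change, between -0.22 and 0.26. Of the 7 genes grouped as TARPs, 2 had a positive and 5, with Cacng6 among them, a negative one.

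Among the further lists, 0 genes passed the adjusted test (limma, adjusted p = 1.00). At an unadjusted p under 0.05, 2 of the 12 other auxiliary subunits were higher and 1 lower, 0 of the 24 signalling genes did so, and 1 of the 37 adhesion molecules was higher, beside the 1.8% and 1.78% of all genes. Gsg1l was at 9.16 ± 0.25 in WT and 9.56 ± 0.08 in KO (SD, n = 7 each), a log2 fold change of 0.40 (standard error 0.12). Its 7 KO arrays, at 9.43 to 9.67, lay above all 7 WT arrays, at 8.63 to 9.34, and it was the 1 gene of the 3 lists whose groups did not overlap. Over all genes, 0.044% had such groups in the higher and 0.0275% in the lower direction. Cnih3 had a log2 fold change of 0.59 (95% confidence interval 0.14 to 1.05). Shisa6, named for its value, had -0.29 (standard error 0.11). Slitrk1, a postsynaptic organizer with leucine-rich repeats, had 0.36 (standard error 0.13), and Flrt3, an adhesion partner of latrophilins, had -0.30 (standard error 0.15). Nos1, the neuronal nitric oxide synthase, and Rasgrf2 led the signalling genes with -0.26 and 0.20.

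Members also differed in how much they varied among granule-profile arrays, whatever the genotype. Grm5 and Grm2 had the largest SD, 0.91 each, followed by Cacng5 with 0.69, and the median over members was 0.39, beside 0.37 over all genes. Grm5 ranged in signal from 393 to 3842 and was highest in the CA13-marked sample of 433. In 1 member, Gria4, all 4 arrays of the smaller series lay above all 11 granule-profile arrays of the larger one (9.65 to 9.95 against 8.83 to 9.63), and in 1, Gria2, below them (13.29 to 13.43 against 13.52 to 14.08). For all genes these shares were 2.85% and 2.06%. Each series holds both genotypes.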

How the data were processed

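RNA of the brain samples was hybridised to Affymetrix arrays. The authors deposited linear signal intensity values, 1 for each probe set on each array. MAS5 is named in the submitters' processing notes, and every array had a 2% trimmed mean of 499.8; RMA and SAM are the tools of the paper's methods. The scanner files were not used here. All 17 columns were used. Control probe sets, 64 of 45101 rows, were dropped, and log2(signal + 32) was quantile normalized over all arrays. Probe sets were named from the platform annotation, 34945 with 1 symbol, 932 with several (not used) and 9160 with none; 34741 were matched by Entrez ID to GRCm38.p6.

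limma 3.58.1 in R 4.3.3 (lmFit, eBayes with intensity trend, genotype as the only term) was fitted over 45037 probe sets on 7 KO and 7 WT unmarked arrays, with Benjamini-Hochberg adjustment over all of them. The exact permutation test of a single probe set covers 3432 splits. No array repeated another (highest correlation 0.974). The fit was tested on simulated data with known fold changes. Per-sample values were given for members past the 2-fold count between array profiles and the 10 with the smallest p between genotypes; of each further list, up to 4 and 2 genes were named. Shisa6 and members near a limit were named after their values were seen. The members and lists were chosen with earlier results of these data known. Alternatives covered scaling, pseudocounts of 1 and 128, dim probe sets, the samples, array series, RNA quality, array weights, the variance model, SAM with 100 permutations, the methods' t-test, the mean over probe sets and leaving out each sample.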

Additional observations from a re-analysis of the deposited data

Results flagged for a closer look

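Of 88 groups of 7 arrays, 44 members in each genotype, 7 held an array whose gap to its nearest neighbour took up most of the range of the group. For normal values, chance alone marks about 1 group in 20. The groups share arrays and are not independent, and the share over all genes was not counted, so no excess can be read from this number. In WT, the sample 392 had the lowest Homer1, at 10.79 with the rest at 11.93 to 12.28, and the highest Shank3, at 10.01 with the rest at 9.23 to 9.53, and the sample MS17 had the lowest Grip2, a scaffold that binds AMPA receptor tails, at 7.96 with the rest at 8.68 or above. In KO, the sample MS15 had the lowest Homer1, at 11.30 with the rest at 11.94 to 12.28, and the lowest Cacng4, a TARP, at 6.57 with the rest at 7.16 to 7.48. The KO sample 391 had the lowest Grm4, at 7.71 with the rest at 8.42 to 8.92, and the lowest Cacng7, at 5.57 with the rest at 6.74 to 7.21. Samples 391 and 392 belong to the smaller array series, and MS15 had the highest Gapdh 3' to 5' log2 ratio, 6.41. The part of either in these values was not tested.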

How the results depend on the processing

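Under every alternative, SAM and the methods' t-test included, 0 members passed the adjusted test between genotypes. The number of members higher in KO at an unadjusted p under 0.05, 1 in the main fit, was 2 with RNA quality as a covariate, with array weights, with the mean over probe sets, without quantile normalization and with the library labelled 433, 5 with the array series as a block and 4 within the larger series. The number lower, 1, was 0 within the larger series, with a filter on dim probe sets and with the library labelled 433. It was 2 within the smaller series, where the median fold change was -0.12 and that of Gria4 turned to -0.10. Leaving out each sample in turn gave 1 to 4 members higher, 0 to 1 lower, 0 called and a median of -0.03 to 0.05. No share of all genes stands beside these genotype counts, so a rise in them cannot be set against that of all genes. Dlg3 kept its direction throughout, with an unadjusted p of 0.0560 without the KO sample 391 and 0.149 with the library labelled 433. Between array profiles, the member count higher, 1, was 2 without quantile normalization (Homer1 added), 2 with a pseudocount of 1 (Grik1 added), 5 at 1.5-fold, 0 with the mean over probe sets and 2 from either CA-profile array alone; the count lower, 2, was 1 with the higher pseudocount (Grm2 lost, at -0.97), 1 with the mean over probe sets (Grik3 lost, at -0.53) and 2 to 2 from either array alone. Of all genes, 1.91% were higher without quantile normalization, 2.38% with a pseudocount of 1, 3.88% at 1.5-fold and 1.27% with the mean over probe sets. The share lower was 1.14% with the higher pseudocount and 1.03% with the mean over probe sets. From the library labelled 433 alone 3.7% were higher and 3.33% lower, and from the CA13-marked sample of 437 alone 4.32% and 3.72%. The median difference of members from either array alone was 0.01 to 0.20. Grm2 was at -3.56 with a pseudocount of 1. The cause of these changes was not tested. No paired analysis was possible because the labels give KO and WT samples no shared replicate numbers. Of the 44 members, 8 had a mean signal under 100, where added constants and background limit what can be read.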
